A study of Mus musculus with 10 samples.

Results

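RNA polymerase II promoter regions that carry the names of several genes are the subject here. Promoter peaks from all 6 polymerase libraries were merged wherever they shared at least 1 bp, and a merged region was kept when its peaks carried 2 or more different gene symbols over all libraries. Of 10991 merged regions, 487 (4.43%) met this rule. They hold 996 different genes. In 465 regions there were 2 names, in 18 there were 3, in 2 there were 4 and in the last 2 there were 5. The regions were thus chosen by the symbols on the peaks and by the extent of the peaks called, so the numbers of names below describe the choice and support nothing.

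The peaks come from ChIP-seq (chromatin immunoprecipitation and sequencing) of RNA polymerase II in primary Th1 cells, with the antibody 8WG16 (ab817), which binds the repeated tail of the largest subunit. The mice were of strain Balb/c DO11.10, whose T cells carry a transgenic receptor for an ovalbumin peptide. CD4+ T cells had been primed toward Th1 with anti-CD3, anti-CD28, anti-IL-4 and interleukin 12, expanded with an interleukin 2 analogue and left without it for a day. All groups share this history and a fixation in 1% formaldehyde for 10 min. The groups, of 2 libraries each, were cells not restimulated (NR), and cells restimulated with plate-bound anti-CD3 and soluble anti-CD28 for 30 min (30min) or for 2 h (2h). Nothing in the labels says that the replicates were separate animals or cultures. The p-values here reflect the spread between 2 libraries of a group, whatever its source, technical spread included. That spread was pooled over the groups and drawn toward a trend over all regions tested, so it is not a region's own alone. Promoter peaks were assigned to the T cell and Th1 genes Cd3e, Cd3d, Cd4, Tbx21 and Ifng in all 6 libraries, and to the B cell gene Ms4a1, the myeloid genes Lyz2 and Csf1r and the CD8 gene Cd8a in 0. No read depth is given in the lists. The libraries held 9074 to 10680 promoter peaks with median lengths of 692 to 1229 bp, and replicate 1 of each group had the fewer and shorter peaks of its group.

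Many mammalian genes start back to back, and the stretch between the starts of such a head-to-head pair serves as a promoter in both directions, often within one CpG island. Other genes share a stretch of polymerase because one lies inside the other. Most small nucleolar RNAs (snoRNAs), which guide the chemical modification of ribosomal RNA, are cut from the introns of host genes, many of which encode ribosomal proteins, and many microRNAs are likewise processed from longer transcripts. A peak over such a locus can be given the name of any of the genes that start under it.

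The printed windows show what these neighbourhoods look like. The first 3 are head-to-head pairs, with the bases from one start to the other in capitals, and the fourth is the start of Egr2, whose capitals mark a CArG box, the kind of site that serum response factor binds. They are RefSeq windows of GRCm38.p6, which is mm10, the build of the peaks.
Rps25 (with Trappc4), chr9:44407464-44407763, plus strand: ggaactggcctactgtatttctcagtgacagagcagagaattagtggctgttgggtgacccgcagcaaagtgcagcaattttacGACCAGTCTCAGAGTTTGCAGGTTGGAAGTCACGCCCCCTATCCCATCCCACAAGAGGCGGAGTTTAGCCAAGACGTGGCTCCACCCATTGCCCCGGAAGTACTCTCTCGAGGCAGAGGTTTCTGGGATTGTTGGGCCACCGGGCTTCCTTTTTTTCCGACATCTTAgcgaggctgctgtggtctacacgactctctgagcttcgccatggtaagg
Fam162a (with Ccdc58), chr16:36071512-36071811, minus strand: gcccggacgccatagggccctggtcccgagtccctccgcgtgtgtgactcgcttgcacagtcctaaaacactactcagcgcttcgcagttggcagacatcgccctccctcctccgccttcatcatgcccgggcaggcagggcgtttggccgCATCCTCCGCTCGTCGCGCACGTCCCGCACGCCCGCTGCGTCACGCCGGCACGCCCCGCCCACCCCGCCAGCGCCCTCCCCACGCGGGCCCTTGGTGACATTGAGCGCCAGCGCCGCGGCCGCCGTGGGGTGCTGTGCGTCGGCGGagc
Psmb9 (with Tap1), chr17:34187281-34187580, minus strand: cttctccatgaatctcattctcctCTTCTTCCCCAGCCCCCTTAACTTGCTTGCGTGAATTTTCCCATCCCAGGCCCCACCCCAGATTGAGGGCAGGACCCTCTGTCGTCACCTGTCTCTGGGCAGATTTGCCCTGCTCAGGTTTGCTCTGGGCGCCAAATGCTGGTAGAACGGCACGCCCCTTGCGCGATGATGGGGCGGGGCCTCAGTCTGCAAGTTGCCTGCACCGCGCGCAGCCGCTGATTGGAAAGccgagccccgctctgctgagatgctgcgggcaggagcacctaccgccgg
Egr2, chr10:67537619-67537918, plus strand: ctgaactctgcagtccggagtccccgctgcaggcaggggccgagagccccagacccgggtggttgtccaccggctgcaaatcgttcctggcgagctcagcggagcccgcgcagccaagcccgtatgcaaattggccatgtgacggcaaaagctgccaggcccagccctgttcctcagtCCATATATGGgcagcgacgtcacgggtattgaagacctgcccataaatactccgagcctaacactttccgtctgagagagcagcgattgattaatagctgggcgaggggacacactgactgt
In the first window 167 bases run from the start of Trappc4 to that of Rps25, both ends counted, and in the second 146 bases run from Ccdc58 to Fam162a. In the third the capitals span 227 bases between the RefSeq starts of Psmb9 and Tap1. The peaks' own annotation placed the Tap1 start 2561 bp from that of Psmb9, at another transcript.

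Regions named for microRNAs are represented by 3 mature sequences, with the seed (bases 2 to 8), the part that pairs with target RNAs, in capitals. The first 2 come from the Mir17/Mir18/Mir17hg region and the third from the Mir23a/Mir3074-2 region, both described below, and the 3 seeds differ.
mmu-miR-17-5p: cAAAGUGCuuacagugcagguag
mmu-miR-18a-5p: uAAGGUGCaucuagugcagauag
mmu-miR-23a-3p: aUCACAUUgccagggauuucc

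By gene spans, 359 of the 487 regions (73.7%) were head-to-head, 51 tandem (both genes on 1 strand), 42 nested (one gene inside the other) and 16 tail-to-tail, and 19 regions of 3 or more genes mixed these arrangements. The 2 start sites lay a median of 382 bp apart in head-to-head pairs, 1051.5 bp in nested pairs, 2676 bp in tandem pairs and 7400 bp in tail-to-tail pairs. Of the head-to-head pairs, 294 had their starts at most 1000 bp apart and 215 at most 500 bp apart, and in 71 the spans overlapped at their starts. The closest starts were those of Tmem186 and Pmm2, at 6 bp. Pmm2 encodes a phosphomannomutase of protein glycosylation. The widest region of all, at 37755 bp, lay tail-to-tail over Gimap4 and Gimap6, GTPases of lymphocytes, with starts 23666 bp apart.

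**Figure D1:**
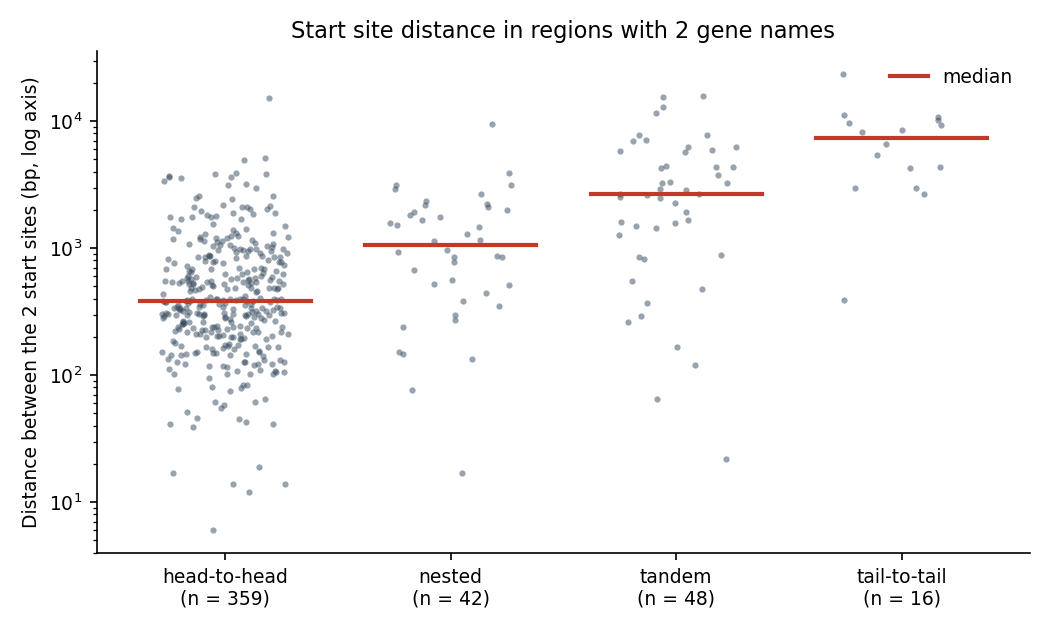
Distance between the 2 gene start sites (bp, log axis) in each of the 465 regions with 2 names, by gene arrangement; points are regions and red lines medians. Head-to-head starts centre on 382 bp and tail-to-tail starts on 7400 bp.

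Merged width followed the same order. It had a median of 2241 bp in the regions with several names and 1301 bp in the 10504 regions with 1 name, and by arrangement 1960 bp in head-to-head, 3018 bp in nested, 6758 bp in tandem, 7879 bp in mixed and 11173.5 bp in tail-to-tail regions. Peaks were present in all 6 libraries in 431 of the 487 regions (88.5%), against 69.5% of the regions with 1 name. The rule bears on both measures, so neither difference was tested. All 487 regions had a peak in at least 2 libraries and so passed the filter of the test below.

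RefSeq windows were found for 604 of the 716 genes in head-to-head regions (84.4%). Their 300 bases around the start held a median of 22 CpG dinucleotides, against 7 in all 27025 RefSeq promoter windows. On either strand, GGGCGG was in 63.7% of them against 35.9% of all windows, CCGGAAG in 24.0% against 9.12%, and TATAAA in 4.80% against 14.2%. The windows of all genes include silent promoters. Genes named only in regions with 1 name, the closer comparison, had a median of 21 CpG dinucleotides, with GGGCGG in 66.2%, CCGGAAG in 19.7% and TATAAA in 6.57% of their windows, so most of the distance from all windows is shared by genes with a promoter peak. A window was found for 79.9% of them, just under the 80% set for such a check, and no difference between the 2 sets was tested. In the tandem, nested, tail-to-tail and mixed classes fewer genes had a window, and their check is void. Among the windows printed above, that of Rps25 holds CCGGAAG and those of Fam162a and Psmb9 GGGCGG. The CArG box of the Egr2 window was in 1.57% of all windows.

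Each deposited peak carries 1 symbol, so a second name enters a region in 1 of 2 ways. In 358 regions several names occurred within at least 1 library, on separate peaks. In the other 129, of which 113 were head-to-head, each library had a single name and the name differed between libraries. The rule is met narrowly by many regions. When a name had to be assigned in at least 2 libraries, 270 regions remained, so 217 rest on a name seen in 1 library. On the other side of the rule, 1220 of the 10504 regions with 1 name (11.6%) contain RefSeq start sites of 2 or more genes. Of the 1530 regions with several RefSeq starts, 310 (20.3%) carried several names. The RefSeq promoter table is not complete, so these counts are lower bounds.

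The name of a shared peak went with the order of the gene identifiers. Of the 3791 peaks in these regions, 1729 lay over the starts of 2 or more of the region's named genes, and 1729 of those carried the gene whose numeric identifier comes first when sorted as text. Sorted as a number, the lowest identifier gave the name in 892 (51.6%). In regions with 2 names, 1648 peaks lay over both starts, in 440 regions, and in 0 of these regions did both names occur on such peaks. The named gene was the one on the plus strand in 49.4%, the one with the left start in 50.9% and the longer one in 48.1%. The plus strand gene was named in 62.6% of 123 such peaks in nested pairs and in 17.4% of 23 in tail-to-tail pairs. A further 1442 peaks lay over 1 named start, and 1433 of them (99.4%) carried that gene's name. The last 620 lay over none. With RefSeq protein-coding starts, which did not come from the names, the gene first in text order gave the name in 95.5% of 929 such peaks here and in 93.2% of 3172 such peaks in regions with 1 name.

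Since each peak carries 1 symbol, a region can show several names in a library only where it has 2 or more peaks there. The first 2 sets of numbers below are tied in this way. The share of the 487 regions with 2 or more peaks was 38.2% and 26.9% in NR, 37.2% and 10.7% at 30min, and 35.1% and 14.4% at 2h, replicate 1 before replicate 2. Regions with several names numbered 172 and 121 in NR, 163 and 49 at 30min, and 154 and 65 at 2h. A single peak over both starts was found in 140 and 305 of the 465 2-name regions in NR, in 136 and 406 at 30min, and in 274 and 387 at 2h. Replicate 2 was the higher in each group, and the replicates of 1 group were further apart than the groups' replicates 2 were from each other. Called length had a median over the regions of 1037 and 1426 bp in NR, 1033 and 1989 bp at 30min, and 1737 and 2045 bp at 2h. In regions with 1 name the medians were 628 and 876.5 bp in NR, 560 and 1138 bp at 30min, and 946 and 1182.5 bp at 2h, in the same order of libraries.

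**Figure D2:**
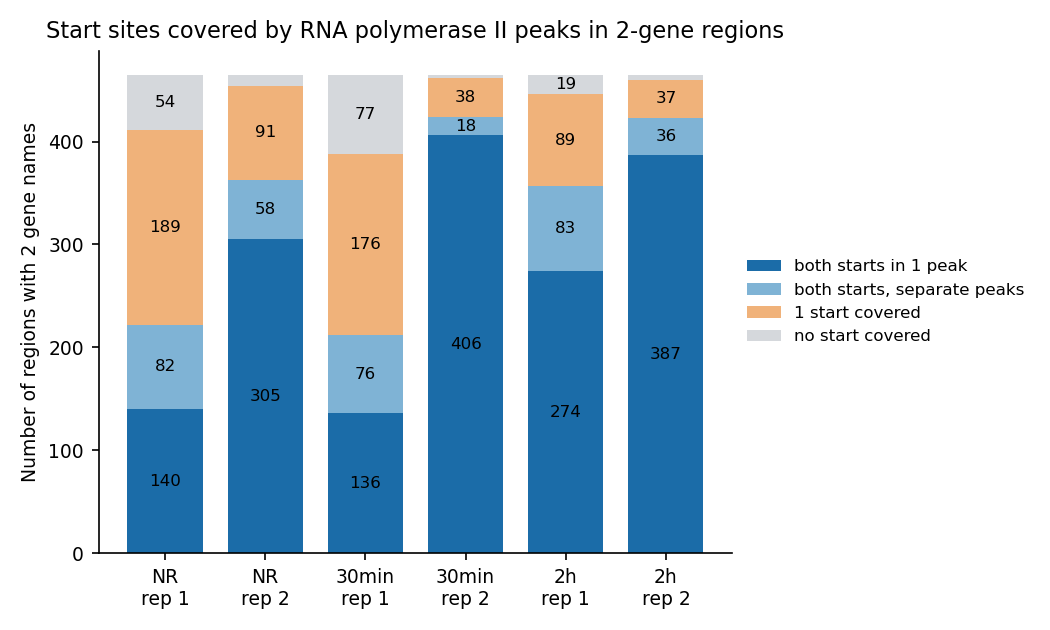
Number of the 465 regions with 2 names (y axis) in each library (x axis) by how promoter peaks covered the 2 start sites. The dark bars, both starts under 1 peak, run from 136 in 30min replicate 1 to 406 in 30min replicate 2, so a group's 2 libraries can differ more than groups do.

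The set of names in a region was the same in both libraries of a group in 55.6% of regions with a peak in both for NR, 37.9% for 30min and 62.3% for 2h. Between libraries of different groups it was the same in 36.3 to 77.3%, a range that encloses the 3 values within groups. Where both replicates of each group agreed, the names differed between 30min and NR in 25 of 77 regions, between 2h and NR in 46 of 149, and between 2h and 30min in 8 of 94. A name present in NR was missing in 22 of the 25 regions at 30min, and in 21 of these 22 the peaks of both 30min libraries still covered every named start. At 2h a name was missing in 39 of the 46 regions, and in 38 of these 39 both libraries still covered every named start. In 3 regions at 30min and 7 at 2h, names were gained without one being lost.

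Hcst and Nfkbid, head-to-head with starts 1878 bp apart, are an example. Hcst encodes the signalling adaptor DAP10, and Nfkbid encodes an atypical, inducible IκB protein that acts on NF-κB. Called length was 3325 and 3854 bp in NR, 13429 and 15087 bp at 30min, and 13547 and 13078 bp at 2h. Both names were present in NR, on separate peaks, and at 30min and 2h a single peak over both starts carried the name Hcst in all 4 libraries. Nfkbid thus has no named peak after restimulation although its start was covered in every library. The groups do not overlap, but the changes missed the threshold of adjusted p under 0.05: the log2 difference, from log2(bp + 100) centred per library, was 1.81 ± 0.32 (SE) for 30min against NR (limma, adjusted p = 0.143) and 1.40 ± 0.32 for 2h against NR (adjusted p = 0.173).

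Dusp2, a phosphatase that inactivates MAP kinases and is induced early after receptor signalling, lies in tandem with Astl, an egg protease. This region had 3690 and 3947 bp in NR, 6200 and 9107 bp at 30min, and 9129 and 9220 bp at 2h. Astl and Dusp2 were both named in NR, and only Dusp2 in the other 4 libraries, in which 1 peak covered both starts. Mitd1/Mrpl30, a pair with starts 142 bp apart, changed names in the same way with little change of length. It had 1121 and 1402 bp in NR, 805 and 1897 bp at 30min, and 1678 and 1938 bp at 2h, and it was named for Mrpl30, a mitochondrial ribosomal protein, alone at 30min and 2h.

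Small RNA genes, listed by their names and with the host Mir17hg included, were found in 74 regions, 96 genes in all. This is 48.0% of the 200 listed small RNA genes with any named promoter peak, against 9.56% of all 10419 genes named. In 65 of the 74 the region also carried another kind of gene. Small RNA names stood alone in 6 and 13 of the 65 regions in NR, in 16 and 42 at 30min, and in 37 and 42 at 2h, while the other gene stood alone in 37 and 26 in NR, 20 and 12 at 30min, and 11 and 10 at 2h. In both NR libraries the other gene thus stood alone in more regions than the small RNA did, and in both 2h libraries in fewer. The 30min libraries lie far apart, 24.6% in replicate 1 and 64.6% in replicate 2. The part that the break-up of peaks in replicate 1 has in this was not tested.

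**Figure D3:**
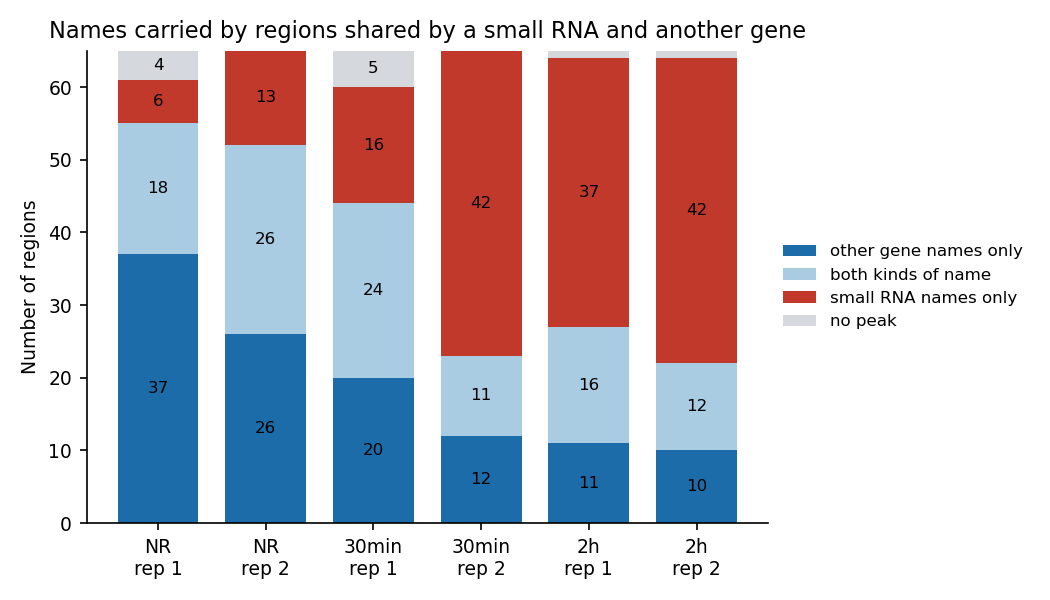
Number of the 65 regions shared by a small RNA gene and another gene (y axis) in each library (x axis), by the kind of name their peaks carried. Regions with small RNA names alone number 6 and 13 in NR and 37 and 42 at 2h, and 16 and 42 at 30min.

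Ribosomal protein genes give the clearest cases. They were named in 20 of the 487 regions, and 21 of the 73 ribosomal protein genes with a named peak were among them. Of these regions, 14 also held a listed small RNA gene, a list that does not hold AF357399. A ribosomal protein gene was named in 19 and 17 of the 20 regions in NR, 13 and 9 at 30min, and 9 and 9 at 2h. Over the same libraries the median called length of the 20 regions was 1524.5 and 1926 bp in NR, 2221 and 6414.5 bp at 30min, and 6378 and 6755 bp at 2h. The 3 libraries with the most called DNA in these regions were those with 9 such names.

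Rpl12/Snora65, where the snoRNA lies inside the ribosomal protein gene, had 1421 and 1801 bp in NR, 5726 and 6869 bp at 30min, and 6514 and 6863 bp at 2h. Both NR libraries named Rpl12 and Snora65, and the other 4 named Snora65 alone. The difference missed the threshold, with a log2 change of 1.76 ± 0.21 for 30min against NR (limma, adjusted p = 0.061) and 1.54 ± 0.21 for 2h against NR (adjusted p = 0.055). Rps16/AF357399 had 1176 and 1219 bp in NR, 1999 and 6445 bp at 30min, and 5660 and 6143 bp at 2h, and it was named AF357399 in 3 of the 4 later libraries, with both names in the other, and Rps16 in NR. Rpl27a/Snora3 had 1501 and 1271 bp in NR, 2443 and 8524 bp at 30min, and 8446 and 8892 bp at 2h. It was named Rpl27a in NR and Snora3 in the later libraries, 2h replicate 2 carrying both names. Rpl38/Ttyh2 did not lose its ribosomal name: the region had 697 and 981 bp in NR, 1500 and 7489 bp at 30min, and 6242 and 7398 bp at 2h, Rpl38 was named in every library, and Ttyh2, a chloride channel gene 6925 bp from it, was added in 30min replicate 2 and both 2h libraries. In each of these 4 regions both 2h libraries were longer than both NR libraries, and the ribosomal protein gene was named in both NR libraries.

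Further snoRNA hosts lost names as well. Nek8/Mir7653/Snord4a/Snord42b/Rpl23a carried Mir7653, Nek8 and Rpl23a in NR, and Snord4a alone in 30min replicate 2 and at 2h. It had 2560 and 3908 bp in NR, 5764 and 7886 bp at 30min, and 7906 and 8050 bp at 2h. Gas5/Snord47, the start of a snoRNA host gene without a protein product, was named for both in NR and for Snord47 in the other 4 libraries, with 5758 and 5838 bp in NR, 7106 and 8298 bp at 30min, and 8269 and 8446 bp at 2h. In both regions the later libraries thus carried fewer names than NR, other than 30min replicate 1 in the first.

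Called length was then tested over all 10261 regions with a peak in at least 2 libraries. At 30min against NR, 3 of the 487 regions were longer and 0 shorter at adjusted p under 0.05, beside 0.166% longer and 0% shorter of all regions. At 2h against NR, 8 were longer and 0 shorter, beside 0.448% and 0.00975% of all. At an unadjusted p under 0.05, 78 were longer and 13 shorter at 30min, beside 6.36% and 2.1% of all, and 88 longer and 21 shorter at 2h, beside 8.65% and 4.62%. For 2h against 30min the count was 0 in both directions by limma, and also 0 over all regions (0% called), with 15 longer and 16 shorter at an unadjusted p under 0.05, beside 2.26% and 2.78% of all. With the number of summits in place of length, 3 were higher and 3 lower in that comparison, beside 122 higher and 20 lower of all 10322 regions.

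These calls are few and change with the libraries used. Each reported call held in 1 or 2 of the 6 fits that left out a library. Over all 16 alternative fits a call held in 5 to 10. The counts below therefore need not be of the same regions. The shares of the calls cannot be read against those of all regions, because a longer or further peak can bring the second name the rule needs. Of the regions called, only Plagl2/Pofut1 carried 2 names in an NR library. The others met the rule through restimulated libraries, so the p-values given for them below are descriptive. Leaving out NR replicate 1, 2h replicate 1 or 2h replicate 2 left 0 regions called longer in both comparisons with NR. Leaving out NR replicate 2 left 3 at 30min and 5 at 2h. Without 30min replicate 1 there were 9 and 27, beside 47 and 159 of all 10255 regions then tested. Without 30min replicate 2 there were 14 longer and 11 shorter of 484 at 30min, beside 62 longer and 209 shorter of all 9936. In that fit 27 were longer at 2h against NR, beside 152 of all, and 16 for 2h against 30min, beside 182 of all. A limma fit without the trend of spread over length, an alternative chosen after the data were seen, called 0 in each comparison. Over all 10261 regions it called 4 longer at 30min and 2 longer at 2h against NR, and 1 shorter for 2h against 30min. With the replicate number as a block, 1 of the 487 regions was longer at 30min against NR and 5 at 2h against NR. Over all 10261 regions the blocked fit called 11 and 34 longer in the same order.

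Before centring, called length was higher in both 30min libraries than in both NR libraries in 113 of the 487 regions, beside 11.6% of all regions, and higher at 2h than in NR in 301, beside 52.8% of all. It was higher at 2h than at 30min in 81, beside 17% of all. The share of these regions was 23.2% at 30min and 61.8% at 2h. The rule bears on length, since longer or further peaks can bring second names, so these shares were not tested against those of all regions. The reverse, shorter without overlap, held in 1 and 4 regions against NR and in 4 for 2h against 30min, beside 0.526%, 1.57% and 0.702% of all. The centring removed a shift of 0.15 (30min against NR), 0.46 (2h against NR) and 0.31 (2h against 30min) on the log2 scale from all regions. After it, the median log2 difference of the 487 regions was 0.06, 0.09 and 0.04 in the same order, and over all regions −0.03, −0.02 and −0.01.

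The medians differed between gene arrangements. In the 359 head-to-head regions the median log2 difference was −0.02 for 30min against NR and 0.03 for 2h against NR. It was 0.32 and 0.31 in nested, 0.31 and 0.45 in tandem, 0.42 and 0.63 in tail-to-tail and 0.84 and 0.85 in mixed regions, in the same order. Groups did not overlap, with 2h longer than NR, in 199 of 359 head-to-head, 34 of 42 nested, 36 of 51 tandem, 14 of 16 tail-to-tail and 18 of 19 mixed regions, beside 52.8% of all regions tested. The classes differ in width, which the merging of peaks fixes, and the differences between classes were not tested.

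**Figure D4:**
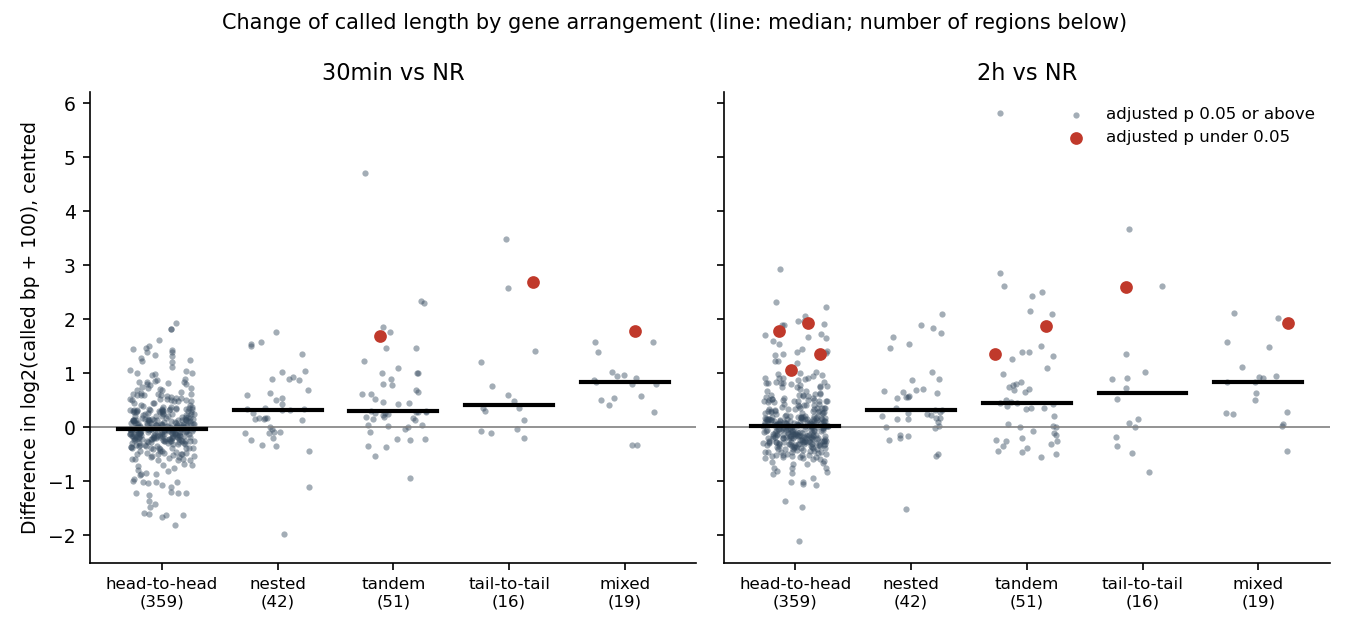
Difference in log2(called bp + 100), centred per library, for 30min against NR (left) and 2h against NR (right), by gene arrangement; points are regions, black lines medians, and red points passed adjusted p under 0.05. Head-to-head regions centre near 0, and mixed regions on 0.84 and 0.85.

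Among the 487 regions, Egr2/Ado had the smallest adjusted p in both comparisons with NR. It lies on chromosome 10 from 67535030 to 67549938. Egr2 encodes a zinc finger transcription factor induced by antigen receptor signals, and Ado an enzyme that oxidises cysteamine. The genes point toward each other, with starts 11086 bp apart. Called length was 1469 and 1544 bp in NR, 9020 and 14359 bp at 30min, and 12708 and 13996 bp at 2h. All of the NR length lay in 1 peak named Ado that did not reach the Egr2 start, and in each of the other 4 libraries 2 peaks covered the 2 starts and carried both names. The region thus met the rule of 2 names only through the restimulated libraries, in which it was longer. Its p-values below are therefore descriptive. Mean length was 11689.5 ± 3775 bp at 30min and 1506 ± 53 bp in NR (SD, n = 2 each), a log2 difference of 2.69 ± 0.20 (SE; limma, adjusted p = 0.0186). It was 13352 ± 911 bp at 2h, a log2 difference of 2.60 ± 0.20 from NR (adjusted p = 0.0204). Here the second name marks a new peak rather than a split one.

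Nop56/Snord110/Snord57 passed in both comparisons with NR too, and its p-values are descriptive as well. Nop56 encodes a core protein of the particles that hold box C/D snoRNAs, and both snoRNAs lie inside it. The region had 1489 and 2041 bp in NR, 5107 and 9369 bp at 30min, and 9435 and 9759 bp at 2h, so all later libraries exceeded both NR libraries. It was named Nop56 in NR, carried all 3 names in 30min replicate 1 and Snord57 alone in the other 3. The log2 difference was 1.78 ± 0.17 for 30min against NR (limma, adjusted p = 0.0422) and 1.93 ± 0.17 for 2h against NR (adjusted p = 0.0265). Snord83b/Snord43 overlaps the ribosomal protein gene Rpl3 by RefSeq and is named here because its values stood out. It had 1750 and 1706 bp in NR, 5572 and 9332 bp at 30min, and 9126 and 9044 bp at 2h. Its difference passed at 2h (1.87 ± 0.20, limma, adjusted p = 0.0419) and just missed at 30min (1.85 ± 0.20, adjusted p = 0.0512). Its second name too came from restimulated libraries alone, so these p-values are descriptive. Rpl3 was not the name of any of its peaks.

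H2-Q8/H2-Q6 holds 2 nonclassical class I histocompatibility genes. They belong to a family of near-identical copies, so reads may be shared between members and the values are uncertain. It had 805 and 972 bp in NR, 2979 and 3892 bp at 30min, and 3003 and 3814 bp at 2h. The log2 difference from NR was 1.68 ± 0.17 at 30min (limma, adjusted p = 0.0461) and 1.36 ± 0.17 at 2h (adjusted p = 0.0492). Both NR libraries named H2-Q6 alone, so these p-values are descriptive.

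Besides Snord83b/Snord43, the regions called longer at 2h alone were 4 head-to-head pairs. Whether their 2h values differ from 30min did not pass the test for any of them, with limma adjusted p of 0.434 or more. Only Plagl2/Pofut1 carried 2 names in an NR library, so the p-values of the other pairs are descriptive. Trappc4/Rps25, the first window printed above, pairs a subunit of a vesicle tethering complex with a ribosomal protein. It had 1109 and 1357 bp in NR, 1964 and 2206 bp at 30min, and 6971 and 6683 bp at 2h, so both 30min libraries were also longer than both NR libraries. The log2 difference was 1.92 ± 0.23 for 2h against NR (adjusted p = 0.0471). A single peak covered both starts in every library and was named Trappc4, and Rps25 appeared in 30min replicate 1 only, on a further peak.

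Plagl2/Pofut1 pairs a zinc finger transcription factor with the enzyme that adds O-fucose to Notch. It had 1111 and 1895 bp in NR, 2045 and 4704 bp at 30min, and 6329 and 8364 bp at 2h, and differed by 1.79 ± 0.21 for 2h against NR (limma, adjusted p = 0.0471). Fam162a/Ccdc58, the second window, had 976 and 1203 bp in NR, 1289 and 2437 bp at 30min, and 3154 and 3441 bp at 2h, with a difference of 1.06 ± 0.13 for 2h against NR (adjusted p = 0.0471). In both regions the later libraries were longer than both NR libraries. Mettl21b/Mettl1 holds 2 methyltransferase genes, of which Mettl1 modifies transfer RNA. It had 460 and 632 bp in NR, 937 and 1503 bp at 30min, and 1854 and 2476 bp at 2h, a difference of 1.35 ± 0.16 for 2h against NR (adjusted p = 0.0466). It carried both names in 2h replicate 1 and Mettl21b in 2h replicate 2, the libraries in which both starts were covered, and Mettl1 in the other 4.

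**Figure D5:**
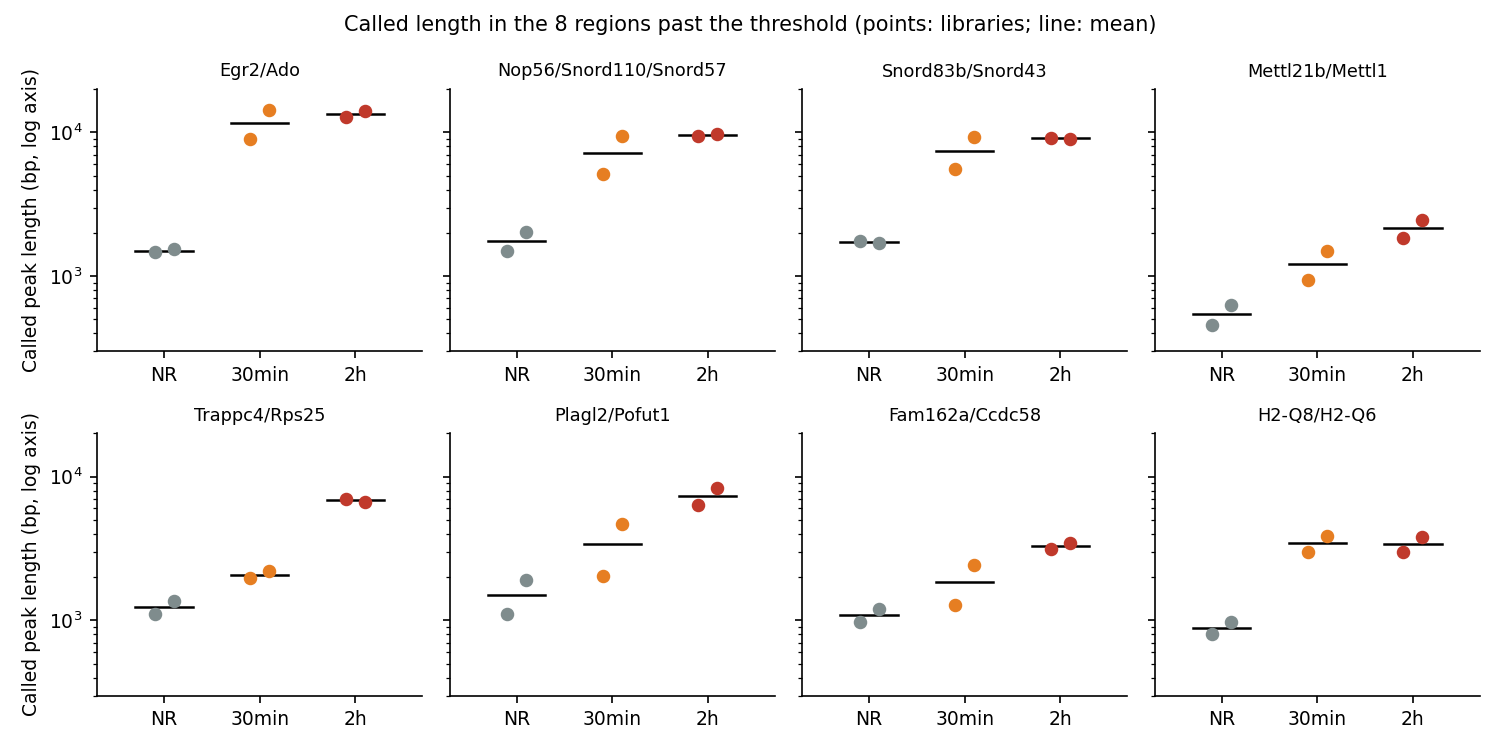
Called promoter peak length (bp, log axis, not centred) by group in the 8 regions past the threshold for 2h against NR; points are the 2 libraries of a group and lines their means. Egr2/Ado goes with 9020 bp or more in every restimulated library and 1544 bp or less in NR, whereas Trappc4/Rps25 reaches 6683 bp or more only at 2h.

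Several wide changes were not called. Mir17/Mir18/Mir17hg is the start of the host transcript of the miR-17-92 cluster, microRNAs of lymphocyte proliferation, and mature sequences of its first 2 microRNAs are printed above. It had no peak in either NR library, 872 and 8649 bp at 30min, and 6490 and 8967 bp at 2h. With NR listed at 0 no fold is given, and since the region passed the filter of 2 libraries through the restimulated groups alone, no test is given either. Mir23a/Mir3074-2 had 538 and 740 bp in NR, 1717 and 12767 bp at 30min, and 3072 and 12047 bp at 2h, a spread within the later groups as large as the distance to NR (adjusted p = 0.458 and 0.289). Cyb5d1/Tmem88/Kdm6b had 1264 and 1853 bp in NR, 4258 and 17978 bp at 30min, and 14923 and 17607 bp at 2h. Both NR libraries named Cyb5d1 alone, and Kdm6b, a histone H3 lysine 27 demethylase induced in activated immune cells, was named in all 4 later ones. Its difference was 2.29 ± 0.43 at 30min (adjusted p = 0.165) and 2.86 ± 0.43 at 2h (adjusted p = 0.075).

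Gm614/Il2rg, with the gene of the common gamma chain of cytokine receptors, had 597 and 812 bp in NR, 2127 and 8795 bp at 30min, and 3637 and 5877 bp at 2h, and missed the threshold (limma, adjusted p = 0.139 and 0.124). Icam4/Mir1900 had 0 and 522 bp in NR, 1697 and 5234 bp at 30min, and 3525 and 5172 bp at 2h (adjusted p = 0.222 and 0.136). In both regions the 2h libraries were above both NR libraries.

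Of the immediate early genes with a named promoter peak, 4 of 31 were in these regions, Egr2, Dusp2, Nab2 and Zfp36. Nab2, a corepressor of EGR factors, shares a head-to-head start with Tmem194. The Nab2/Tmem194 region had 2609 and 3243 bp in NR, 3614 and 11877 bp at 30min, and 3488 and 3997 bp at 2h (limma, adjusted p = 0.452 for 30min against NR). The high value is 30min replicate 2 alone. Zfp36, which encodes the RNA decay factor tristetraprolin, lies in tandem with Plekhg2, and Plekhg2/Zfp36 had 3965 and 7929 bp in NR, 7108 and 10202 bp at 30min, and 6857 and 11700 bp at 2h, with overlapping groups. Of the NF-κB inhibitors 1 of 12 was in these regions, of the costimulation genes 1 of 15 (Tnfrsf4), and of the chemokines and cytokine loci 0 of 4 and 0 of 10.

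Of the genes listed as known divergent pairs, 5 of 15 with a named peak were here, in 3 regions, of which 2 hold a divergent pair. Brca1/Nbr1 pairs a DNA repair gene with an autophagy receptor, with starts 699 bp apart. It had 1125 and 1658 bp in NR, 1463 and 1769 bp at 30min, and 1275 and 1839 bp at 2h, and replicate 1 of each group named both genes while replicate 2 named Brca1. Psmb9/Tap1, an immunoproteasome subunit and a peptide transporter of antigen presentation, had 4414 and 5791 bp in NR, 4258 and 7860 bp at 30min, and 6127 and 7419 bp at 2h. Both names were present in every library but 30min replicate 2, where 1 peak covered both starts. Med22/Surf1 holds a listed gene, Surf1, an assembly factor of cytochrome oxidase, in tandem with Med22, a Mediator subunit that is not on the list, with starts 5888 bp apart. It had 1499 and 2128 bp in NR, 2102 and 6772 bp at 30min, and 6196 and 7251 bp at 2h, and kept both names throughout. None of the 3 passed the threshold in a comparison with NR (limma, lowest adjusted p = 0.148, for Med22/Surf1 at 2h).

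Replication histone genes, packed closely on chromosome 13, made up 6 regions. Their called lengths ran from 2007 to 7868 bp in NR, from 1480 to 7809 bp at 30min and from 1488 to 7730 bp at 2h. Hist1h1t/Hist1h4c was shorter without overlap at 2h, with 2007 and 2162 bp in NR, 1480 and 2708 bp at 30min, and 1488 and 1718 bp at 2h, and missed the threshold with a log2 difference of −0.82 ± 0.14 (limma, adjusted p = 0.09). Other regions that were shorter without overlap missed it too. Olfr56/9930111J21Rik2 had 1776 and 2487 bp at 2h and 3284 and 3235 bp in NR (−1.07 ± 0.17, limma, adjusted p = 0.087). Amdhd1/Ccdc38 had 0 and 356 bp at 2h and 749 and 430 bp in NR (−2.11 ± 1.11, adjusted p = 0.468). Crat/Ppp2r4, an acetyltransferase of carnitine and an activator of a phosphatase, had 742 and 1481 bp at 30min and 1540 and 1918 bp in NR (−0.81 ± 0.14, adjusted p = 0.127). Sun2/Gm16576, with the gene of a nuclear envelope protein, had 1079 and 1176 bp at 2h and 1264 and 2290 bp in NR (−1.02 ± 0.20, adjusted p = 0.129).

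Wide regions in which restimulated libraries were longer without passing the threshold included Rilpl2/Snrnp35, with a gene of vesicle trafficking and a spliceosome protein. It had 2571 and 3195 bp in NR, 7766 and 17024 bp at 30min, and 9400 and 9446 bp at 2h (limma, adjusted p = 0.067 for 30min against NR). Wdr78/Mier1 had 4639 and 6278 bp in NR, 10305 and 18788 bp at 30min, and 10854 and 18470 bp at 2h, and in its 2 longest libraries a single name, Wdr78, remained. Hnrnpa2b1/Cbx3, an RNA-binding protein and a heterochromatin protein, had 2834 and 2811 bp in NR, 4490 and 15769 bp at 30min, and 5161 and 15762 bp at 2h, so replicate 2 of each later group was 3 times replicate 1 or more. Myo1g/Gm11974, with a myosin of blood cells, had 2228 and 3159 bp in NR, 4845 and 10368 bp at 30min, and 10747 and 26276 bp at 2h. Tnfrsf4/Gm10560, which holds the start of the costimulatory receptor OX40, had 6408 and 11972 bp in NR, 12510 and 17683 bp at 30min, and 17461 and 17547 bp at 2h, and Gm10560 was the only name in 4 libraries. Rpsa/Snora62, with a ribosomal protein gene outside the list of Rpl and Rps names, had 2366 and 4623 bp in NR, 6830 and 8650 bp at 30min, and 8310 and 8653 bp at 2h, and Rpsa was not named in the 3 longest.

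Against this, Ifi27/Ifi27l2a, interferon-induced genes, had 2454 and 3566 bp in NR, 3882 and 11907 bp at 30min, and 3178 and 4258 bp at 2h, and Gimap4/Gimap6 had 21880 and 25025 bp in NR, 22969 and 35303 bp at 30min, and 31447 and 37151 bp at 2h. The first stands out in 30min replicate 2 alone. E230013L22Rik/Rab20, with a GTPase of endosomes, had no peak in NR, 0 and 595 bp at 30min, and 740 and 1222 bp at 2h, and likewise has no test. Psme2/Rnf31, a proteasome activator and a ubiquitin ligase of NF-κB signalling, was longest at 30min, with 1192 and 1836 bp in NR, 2465 and 3744 bp at 30min, and 2402 and 2444 bp at 2h. The difference between 2h and 30min was −0.63 ± 0.16 (adjusted p = 0.636).

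A region over the tumour necrosis factor locus carried the names of microRNAs and is given here for that, chosen after its values were seen. Mir6973a/Mir6974, on chromosome 17 from 35192595 to 35206001, overlaps the RefSeq genes Ltb, Tnf and Lta, and its peaks carried microRNA names in all 6 libraries. Called length was 12053 and 11922 bp in NR, 12157 and 13267 bp at 30min, and 12700 and 13171 bp at 2h, so most of the region was called before restimulation. Every restimulated library was above both NR libraries before centring, so the minus signs below arise from the centring. The log2 difference was −0.07 ± 0.43 for 30min against NR (limma, adjusted p = 1) and −0.35 ± 0.43 for 2h against NR (adjusted p = 0.743).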

How the data were processed

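Per the labels, RNA polymerase II ChIP-seq was made from mouse Th1 cells in 3 groups of 2 libraries. The submitters' processing notes name BWA 0.7.13, Picard 1.119, MACS2 2.1.0 and the build mm10. Peaks were called per library, since each has its own lists, per the labels. The tool behind the gene symbols was not given in the sources used here. The deposited tables hold promoter peaks with the signal as a pileup, the fold enrichment as a ratio, and the −log10 of p and q, per the file headers; these values of the authors were used within a list only, as a filter. The lists hold no read counts, and depth is unknown. Other libraries of the series, for a histone mark and an input, were not analysed here.

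Peaks of the 6 libraries were merged at 1 bp of overlap. Called bp per region and library was taken as log2(bp + 100), which understates changes of short regions, centred on the median of the 7728 regions with a peak in every library, and fitted with limma 3.58.1 in R 4.3.3 (group only, trend of the prior variance over mean length, two-sided, Benjamini-Hochberg over 10261 regions with a peak in at least 2 libraries). A run of the fit on simulated data used the same spread in every region, so it does not test the trend. With 2 libraries against 2 an exact permutation test cannot go below p = 0.333 and none was run. Gene spans and starts are those of the assigned transcripts; 995 of 996 gene identifiers matched the RefSeq table. Named regions are, per comparison, up to 10 called longer and 5 called shorter without overlap of groups, then up to 3 that missed the test, the 4 with most names per arrangement, and those holding genes of set lists. The regions and gene lists were chosen with earlier results of these data known. Alternatives covered the pseudocount, filters, centring, overlap, stricter peaks, equal list lengths, summit counts, a replicate block and leaving out each library.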

Additional observations from a re-analysis of the deposited data

How the results depend on the processing

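Of the 487 regions, 270 remained when a name had to occur in at least 2 libraries (174 head-to-head, 25 nested and 12 mixed, 215 with several names within a library), and 310 without model and small RNA names (8 nested, 3 mixed, 231 within a library). Orientation by strand and start sites alone gave 98 tandem, 0 nested and 8 mixed regions. Leaving out 1 library gave 413 to 470 regions, with 291 to 347 head-to-head, 41 to 51 tandem, 37 to 42 nested, 11 to 17 tail-to-tail, 14 to 19 mixed, and 305 to 339 with several names within a library.

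Regions called longer at 30min and at 2h against NR, 3 and 8 as reported, came to 7 and 15 with a pseudocount of 1000 bp, 1 and 4 with peaks of −log10 q of at least 5, and 1 and 28 with only the 4 libraries compared. Over all regions then tested, the counts were 46 and 120, 11 and 23, and 9 and 158 in the same order. As reported they were 17 and 46 over all regions. At 30min there was 1 without centring and 6 with equal numbers of peaks, and at 2h there were 5 with a pseudocount of 10 bp. Beside these stood 14, 48 and 35 of all regions. With a fit lacking a trend, chosen after seeing the data, there were 0 and 0, beside 4 and 2 of all regions. Equal numbers of peaks gave 1 region shorter in each comparison with NR and 1 longer for 2h against 30min. Over all regions these counts were 1 shorter at 30min, 19 shorter at 2h and 1 longer for 2h against 30min. Summit numbers gave 8 lower at 30min, 4 higher and 9 lower at 2h, and 3 higher and 3 lower for 2h against 30min. Over all 10322 regions these were 54 lower, then 142 higher and 51 lower, then 122 higher and 20 lower. Summit numbers reversed 2h against NR for Nop56/Snord110/Snord57 (−0.21) and Snord83b/Snord43 (−0.29). The cause was not tested. Leaving out 1 library gave 0 to 14 longer and 0 to 11 shorter at 30min, 0 to 27 longer at 2h, and 0 to 16 longer for 2h against 30min; a group left with 1 library is assumed to vary like the others. With the replicate number as a block, 1 region was longer at 30min (Egr2/Ado) and 5 at 2h (Egr2/Ado, Nop56/Snord110/Snord57, Snord83b/Snord43, Plagl2/Pofut1 and Trappc4/Rps25). The other reported calls then had limma adjusted p of 0.058 to 0.0696. Same-numbered libraries of 2 groups deviated together (correlations of 0.42, 0.26 and 0.41), a hint from the data; the labels do not say that a number marks a shared animal, batch or day. The other 132 recomputed counts stayed within 1.5 times the reported ones. Peak lists without read counts limit these comparisons to called length.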
